A study of Mus musculus with 16 samples.

Results

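Interferon-stimulated genes are the genes that cells switch on when interferon reaches them, and most of their products act against viruses and other intracellular microbes. The set described here holds 41 such mouse genes, chosen by name and matched to the deposited values by NCBI Gene ID. They were named with earlier results of these data known, so the counts below describe them and are no independent evidence of a direction. They are 5 regulators, 5 genes of the 2'-5' oligoadenylate synthetase (Oas) family, 4 Ifit genes, 4 genes of the Parp group, 3 guanylate-binding protein (Gbp) genes, 3 immunity-related GTPase (Irg) genes and 17 other effectors. All 41 were among the 36528 gene IDs of each library and among the 18072 genes tested. Of these, Ifit2, Ifit3, Ifit3b and Iigp1 exceeded the 0.386 CPM cutoff of the low-count filter in fewer than 4 of the 4 AKVPSL GFP+ libraries and passed on other groups.

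The series holds RNA sequencing of cells sorted by flow cytometry from mouse intestinal tumours of 2 genotypes, AKVPSL and AKVPL, into GFP+ and GFP- fractions. The 4 groups, with 4 libraries each, were AKVPSL GFP+, AKVPSL GFP-, AKVPL GFP+ and AKVPL GFP-. The series' design speaks of Lgr5-positive and Lgr5-negative cells, so GFP should report Lgr5, a receptor that marks intestinal stem cells. Every sample name says colon, but the tissue field says so for just 1 library (AKVPSL GFP- replicate 1) and has small intestine in the other 15. The labels do not spell out the genotype letters. The names share every letter but S, so what the other letters stand for is common to all 4 groups. As background from the published model, V stands for a villin promoter-driven Cre, S for Smad4 and L for Lgr5. Villin-driven Cre acts in the intestinal epithelium. Neither the host animals, the number of lines or clones behind each genotype, the animals' age nor any gate other than GFP is given in the sources used here. The p-values below therefore measure the spread between libraries, which may be technical, and a difference between the genotypes cannot be told apart from a difference between the lines that carry them.

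Type I and type III interferons bind receptors on the cell surface and activate Janus kinases. The signal leads to the complex ISGF3, which contains Stat2 and Irf9 and binds the interferon-stimulated response element (ISRE) in promoters. Interferon gamma acts mainly through another element, the gamma-activated site (GAS). Irf7 amplifies the response, and Usp18 restrains it at the receptor. The intestinal epithelium is known to rely on interferon signals in defence against enteric viruses, and tumour cells can carry an interferon signature of their own.

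Promoters of the set held these elements more often than promoters at large. RefSeq promoter windows (GRCm38.p6, 250 bases before to 50 after the annotated start) were found for 32 of the 41 genes. The ISRE was searched as GAAANNGAAA, which reads TTTCNNTTTC on the other strand, and the GAS as TTCNNNGAA, which is its own reverse complement. Matches of the 2 motifs may overlap. An ISRE match was present in 18 of the 32 windows (56.25%), against 3.99% of the windows of all 27025 genes in the table and 3.62% of those of the 12973 tested genes. A GAS match was present in 9 of 32 (28.12%), against 9.55% of all genes. By family, the ISRE matched in 3 of 3 Gbp, 2 of 2 Irg, 3 of 4 Ifit, 2 of 4 Oas, 1 of 4 regulator, 7 of 13 effector and 0 of 2 Parp windows. A match describes letters in a window and is not evidence of binding, and its absence says only that these letters are not in that window. No window was used here for Usp18, Oas2, Parp9, Parp14, Iigp1, Mx1, Mx2, Rtp4 and Ifi27l2a.

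The windows below, from upstream of the start of 7 genes of different families, show how the elements are placed. They are read 5′ to 3′ on the strand of the gene, in lower case with ISRE and GAS matches in capitals. They lie at chr4:156200839-156200938 (minus strand) for Isg15, chr19:34640769-34640868 (plus) for Ifit1, chr5:120777690-120777779 (minus) for Oas3, chr8:71537533-71537622 (minus) for Bst2, chr3:142530216-142530315 (plus) for Gbp7, chr11:58199456-58199545 (plus) for Igtp and chr11:53769894-53769993 (plus) for Irf1, and none overlaps an exon of the GENCODE annotation.
Isg15: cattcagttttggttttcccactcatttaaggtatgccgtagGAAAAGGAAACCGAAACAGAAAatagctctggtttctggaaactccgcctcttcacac
Ifit1: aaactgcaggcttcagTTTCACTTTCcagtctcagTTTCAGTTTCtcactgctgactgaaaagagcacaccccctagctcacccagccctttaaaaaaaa
Oas3: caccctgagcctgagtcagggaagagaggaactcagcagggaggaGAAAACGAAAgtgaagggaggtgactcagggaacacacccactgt
Bst2: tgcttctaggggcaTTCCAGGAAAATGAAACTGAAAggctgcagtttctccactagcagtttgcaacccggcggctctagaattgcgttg
Gbp7: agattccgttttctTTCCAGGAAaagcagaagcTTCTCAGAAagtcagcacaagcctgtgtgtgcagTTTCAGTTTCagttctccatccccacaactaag
Igtp: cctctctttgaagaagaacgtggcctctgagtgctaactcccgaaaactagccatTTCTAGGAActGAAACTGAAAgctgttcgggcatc
Irf1: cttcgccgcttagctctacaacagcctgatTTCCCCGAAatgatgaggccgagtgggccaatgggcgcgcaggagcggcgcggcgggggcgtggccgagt
Isg15 carries 3 overlapping ISRE matches that start 78, 72 and 66 bases before the start of the gene. Ifit1 carries 2 separate ISRE matches and Oas3 a single match. In the Bst2 window a GAS match runs into 2 overlapping ISRE matches. The Gbp7 window has 2 GAS matches upstream of an ISRE match, and the Igtp window has a GAS match 2 bases upstream of its ISRE match. Irf1, the regulator with the smallest genotype difference, has a GAS match and no ISRE match.

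Total counts per library ran from 10.881 to 41.602 M. Values per library are CPM, that is counts scaled to library size with TMM factors, tests are edgeR quasi-likelihood tests with Benjamini-Hochberg adjustment over all 18072 genes (threshold 0.05), and log2 fold changes are given ± SE. Lgr5 checked the sort: it had 269.6 ± 14.98 CPM in AKVPSL GFP+ and 67.7 ± 17.8 CPM in AKVPSL GFP-, and 296 ± 39.99 CPM in AKVPL GFP+ and 65.7 ± 8.3 CPM in AKVPL GFP- (SD, n = 4 each). Smad4, named here after its values were seen, was not lower in AKVPSL, with 247 ± 26.2 CPM in AKVPSL GFP+ and 179.5 ± 26.1 CPM in AKVPSL GFP-, against 153 ± 4.24 CPM in AKVPL GFP+ and 139 ± 14.2 CPM in AKVPL GFP-. Its log2 fold change was 0.70 ± 0.11 in GFP+ and 0.37 ± 0.11 in GFP- cells. A count over the whole gene cannot show a small lesion, so the genotype labels are not checked by it. Epcam, an epithelial surface marker, was at 1217 to 2045 CPM in every library. Summed markers of leukocytes, fibroblasts and mast cells were higher in every GFP- library than in the GFP+ libraries of its genotype. Ptprc, the leukocyte marker CD45, averaged 3.74 ± 2.52 CPM in AKVPSL GFP+ and 27.4 ± 15.6 CPM in AKVPSL GFP-, and 15.1 ± 5.79 CPM in AKVPL GFP+ and 96.2 ± 7.08 CPM in AKVPL GFP-. Col1a1, a fibroblast collagen, averaged 158 ± 107 and 667 ± 184 CPM in AKVPSL GFP+ and GFP-, and 243 ± 85.3 and 2412 ± 891 CPM in AKVPL GFP+ and GFP-. Summed over 14 endothelial markers, the libraries overlapped between the AKVPSL sorts, at 257.7 to 340.4 CPM in AKVPSL GFP+ and 269.5 to 672 CPM in AKVPSL GFP-, and not between the AKVPL sorts, at 169.6 to 215.3 CPM in AKVPL GFP+ and 576 to 1029.6 CPM in AKVPL GFP-. Gene by gene, 11 of the 14 were lower and 1 higher in AKVPSL GFP+ than AKVPSL GFP- cells, with a median log2 fold change of -2.96. Of all tested genes, 24.6% were lower and 22.4% higher there. In AKVPL 13 were lower (16.5% of all genes) and none higher (22.6%), with a median of -3.23.

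In GFP+ cells every gene of the set was lower in AKVPSL than in AKVPL. All 41 passed the threshold as lower and none as higher, where 28.1% of all tested genes were lower and 24.9% higher. Their median log2 fold change was -3.33, with a range from -6.52 (Oas2) to -0.57 (Irf1), beside a median of -0.05 over all genes. In each of the 41 genes the 4 AKVPSL GFP+ libraries lay below the 4 AKVPL GFP+ libraries, a separation that 26.3% of all genes showed in that direction and 25.0% in the opposite one. The count stayed at 41 under every alternative setting and with each library left out in turn. In bulk samples, fewer cells that express a gene and less of its RNA per cell cannot be told apart.

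GFP- cells gave the same direction with smaller differences. Here 40 of the 41 genes were lower in AKVPSL (background 30.7%), none was higher (background 32.0%), and the median was -2.004 beside 0.00 over all genes. Ifitm3 did not pass (-0.30 ± 0.14, edgeR adjusted p = 0.0645), and it passed when AKVPL GFP- replicate 4 or AKVPSL GFP- replicate 2 was left out (-0.46 to -0.36). It also passed under every setting other than leaving out a library, except the fit of the GFP- groups alone. Ifi27l2a passed at -1.06 ± 0.36, and the call was lost without any 1 of AKVPL GFP- replicate 3 and AKVPSL GFP- replicates 1, 2 and 4 (-0.96 to -0.81). The 4 AKVPSL GFP- libraries lay below the 4 AKVPL GFP- libraries in 39 genes (background 25.9%), the exceptions being Ifitm3 and Ifi27l2a. Over both fractions, all 8 AKVPSL libraries lay below all 8 AKVPL libraries in 38 genes (background 11.0%), the exceptions being Trim30a, Ifitm3 and Ifi27l2a. The genotype difference was more negative in GFP+ than in GFP- cells in 40 of 41 genes, the exception being Dtx3l. Across the 41 genes, which are not independent replicates, the differences measured in the 2 fractions ran together (Pearson r = 0.855, Spearman rho = 0.802), the 2 comparisons having no library in common.

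Among all genes, 46.97% of the calls in GFP+ cells and 51.08% in GFP- cells were higher in AKVPSL. Scaling by epithelial markers moved these shares to 26.95% and 21.18%, while 41 genes of the set were then lower in each fraction. This scaling takes 20 epithelial markers as level on average, and with TMM the 19 tested were not all level. Their log2 values between genotypes ran from -1.14 to 4.75 in GFP+ cells (median 0.01) and from -0.74 to 3.90 in GFP- cells (median 0.31). For the sort in AKVPL they ran from -0.50 to 1.15 (median 0.18).

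**Figure D1:**
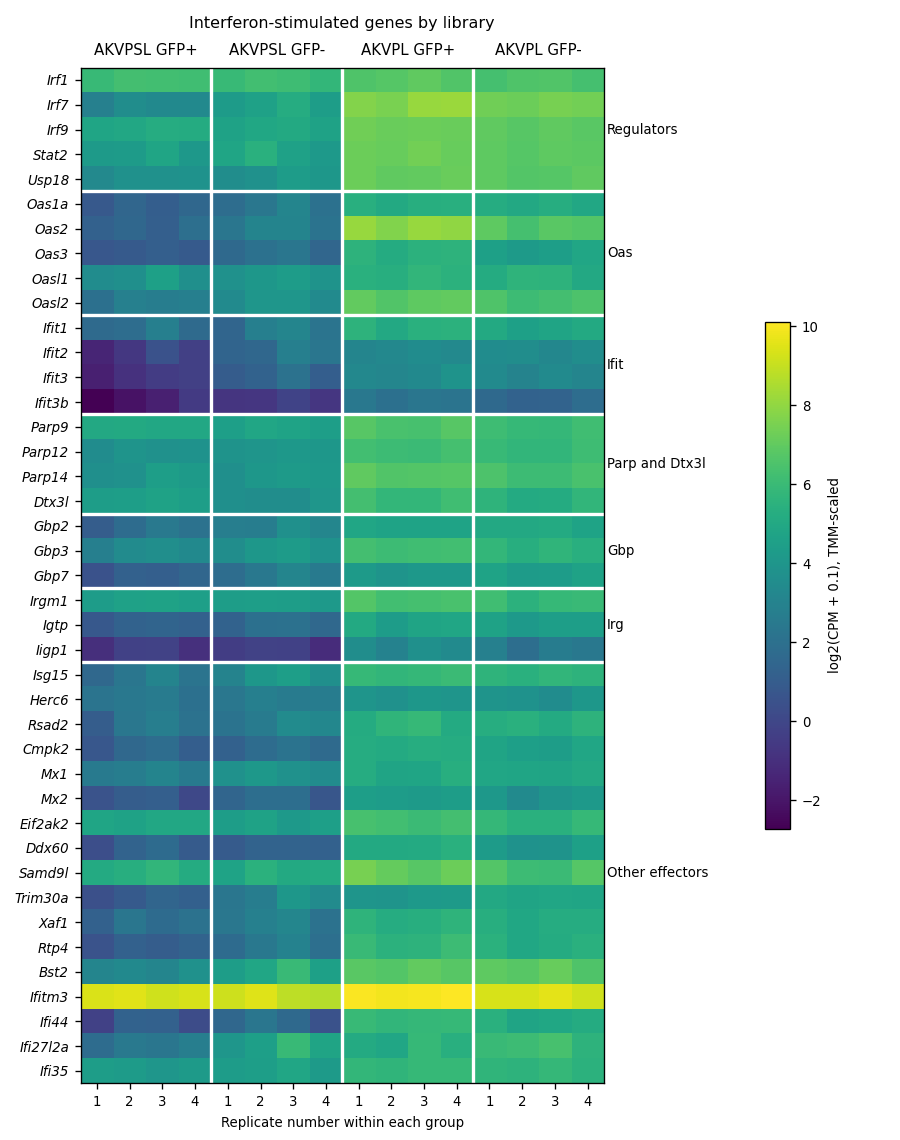
Log2 of CPM plus 0.1 (colour) of the 41 interferon-stimulated genes (rows, by family) in the 16 libraries (columns, by group). The 8 AKVPSL columns on the left are darker than the 8 AKVPL columns in nearly every row, and Ifitm3 is bright throughout.

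**Figure D2:**
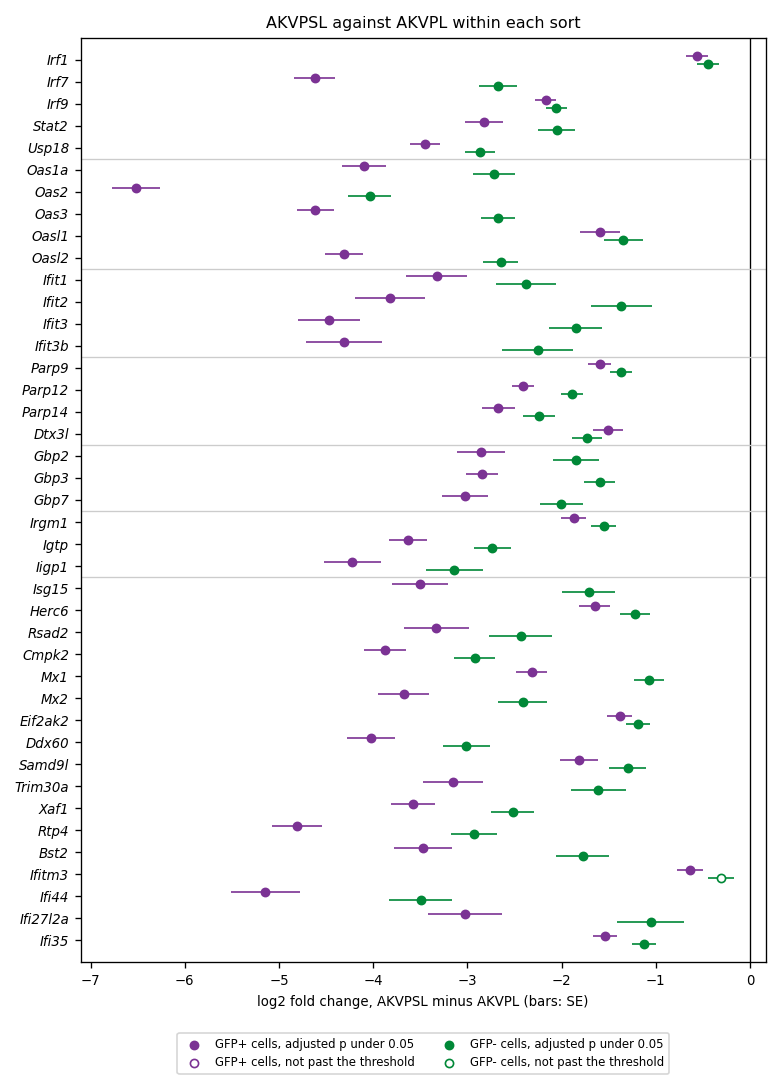
Log2 fold change of AKVPSL minus AKVPL (x axis) for each gene (y axis), in GFP+ cells (purple) and GFP- cells (green), with SE bars and filled points for an adjusted p under 0.05. Every point lies left of 0, and Oas2 in GFP+ cells lies farthest out at -6.52.

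The sorts differed far less. With TMM the median of the 41 genes ran in opposite directions in the 2 genotypes, and with epithelial scaling the AKVPL median was 0.02. In AKVPSL, 20 genes of the set were lower in GFP+ than in GFP- cells (background 24.6%), 3 were higher (background 22.4%), and the median was -0.61 beside -0.01 over all genes. The AKVPSL GFP+ libraries lay wholly below the GFP- libraries in 14 genes (background 19.6%) and wholly above in 3 (background 19.5%). The 3 higher genes were Dtx3l, Eif2ak2 and Parp9. With epithelial scaling Parp9 (0.28) and Eif2ak2 (0.31) lost this call. Ifit3b, Igtp and Mx2 lost theirs with log2(RPKM + 1) or with the AKVPSL groups alone. The count of higher genes was 1 without any 1 of AKVPSL GFP+ replicate 1 and AKVPSL GFP- replicates 1 and 4. In AKVPL, 17 genes were higher in GFP+ cells (background 22.6%) and 1, Trim30a, was lower (background 16.5%), with a median of 0.34 beside 0.14 over all genes. The AKVPL counts moved with the scaling.

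For the sort in AKVPL, the scaling moved both the median of all genes and the count. The median of all genes was 0.14 with TMM, 0.04 with DESeq2 size factors and -0.18 with epithelial scaling. The 17 higher genes became 11 with DESeq2 size factors or library totals and 2 with epithelial scaling. Other settings raised the count, to 20 with only the AKVPL groups, 22 with limma-voom and 25 with replicate number as a block. Of all calls in AKVPL, 57.84% were higher with TMM, 44.92% with library totals, 42.09% under the size factors of DESeq2 and 13.08% with epithelial scaling. In 22 genes of the set the AKVPL GFP+ libraries lay wholly above the GFP- libraries (background 24.7%) and in 2 wholly below (background 16.5%). Oas2, Oas3 and Trim30a kept their calls under every setting other than leaving out a library. The other 15 called genes lost theirs with epithelial scaling, and 6 of them, Irf7, Irf9, Oasl2, Parp12, Parp14 and Cmpk2, also with DESeq2 size factors or library totals. The 17 became 11 when either AKVPL GFP- replicate 2 or AKVPSL GFP- replicate 1 was left out. The lower count of 1 became 0 without any 1 of the 8 AKVPL libraries and 2 without AKVPSL GFP+ replicate 1 or AKVPSL GFP- replicate 1 or 3, and it was 3 with replicate number as a block. Such a block takes the GFP+ and GFP- libraries of 1 number as a pair. In AKVPL each GFP+ library correlated best with the GFP- library of its own number. In AKVPSL the libraries numbered 3 and 4 each correlated best with the other number.

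The test of the difference between the sort effects (AKVPSL minus AKVPL) called 24 genes of the set lower (background 13.7%) and none higher (background 7.02%), with a median of -1.01 beside -0.10 over all genes. With epithelial scaling the count was 14, without Parp12, Gbp2, Gbp7, Igtp, Cmpk2, Mx2, Ddx60, Trim30a, Xaf1 and Ifi44, and with a replicate block it was 31. Of all such calls 33.82% were higher with TMM, 44.25% with library totals, 49.21% under the size factors of DESeq2 and 75.75% with epithelial scaling. Irf7, Oas2, Oas3, Oasl2 and Gbp3 were higher in GFP+ cells of AKVPL and lower in GFP+ cells of AKVPSL, and each also passed the test of the difference. Another 14 were lower in AKVPSL GFP+ cells without passing in AKVPL, 9 were higher in AKVPL GFP+ cells without passing in AKVPSL, and 9 passed in neither. Dtx3l, Eif2ak2 and Parp9 were higher in GFP+ cells of both genotypes and Trim30a was lower in both. The 2 sort comparisons share no library, and across the 41 genes their effects gave Pearson r = 0.525 and Spearman rho = 0.425.

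**Figure D3:**
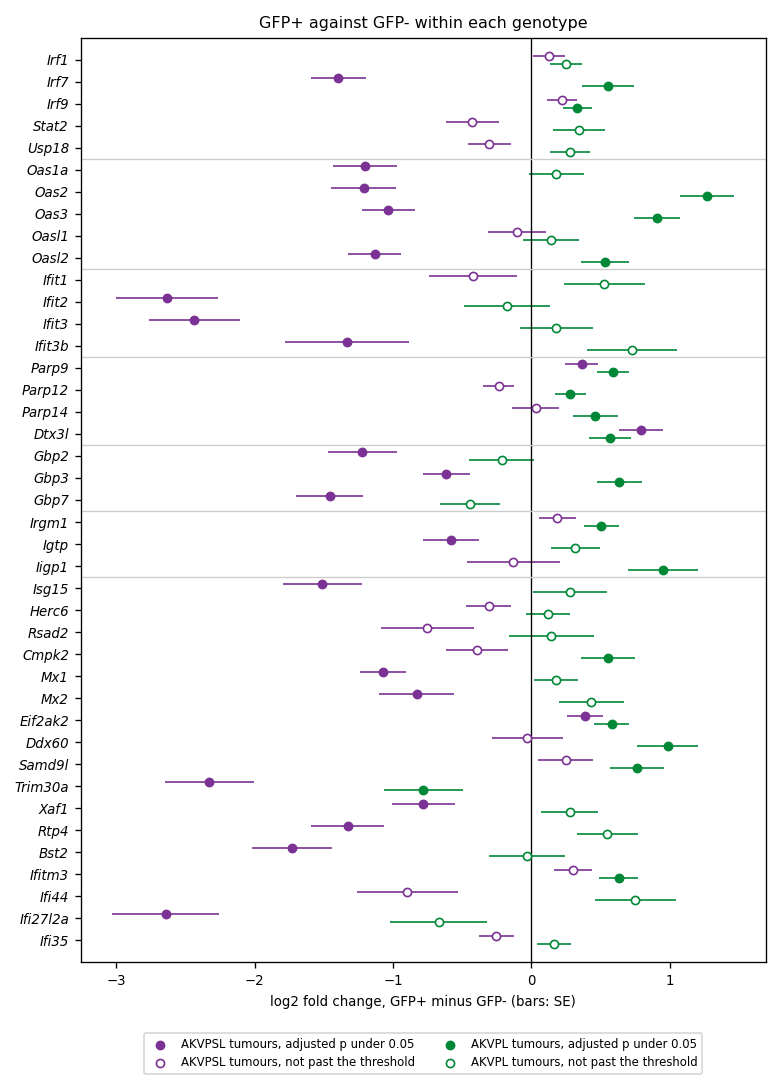
Log2 fold change of GFP+ minus GFP- (x axis) for each gene (y axis), in AKVPSL (purple) and AKVPL (green), with SE bars and filled points for an adjusted p under 0.05. AKVPSL points lie left of AKVPL points in 40 of 41 genes, which by arithmetic is the count by which the genotype differences were more negative in GFP+ cells, and AKVPL points lie mostly between 0 and 1.

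The regulators govern the response itself. Irf7 (chromosome 7, 141263183 to 141266499), the factor that amplifies interferon production and response, had the largest genotype difference among them in GFP+ cells, while Usp18 had it in GFP- cells. Irf7 had 7.23, 11.9, 10.1 and 10.1 CPM in the AKVPSL GFP+ libraries and 20.1, 24.9, 37.1 and 21.4 CPM in the AKVPSL GFP- libraries. For Irf7, the AKVPL GFP+ libraries had 209, 183, 282 and 291 CPM and the AKVPL GFP- libraries 163, 149, 180.4 and 166 CPM. Every AKVPSL library was below every AKVPL library, and the order of the sorts was opposite in the 2 genotypes with no overlap in either. Irf7 fell by 4.62 ± 0.22 in AKVPSL GFP+ cells and by 2.67 ± 0.20 in AKVPSL GFP- cells relative to AKVPL on the log2 scale (edgeR adjusted p = 2.5e-11 and 7.37e-09). GFP+ minus GFP- was -1.40 ± 0.20 in AKVPSL (edgeR adjusted p = 4.72e-05) and 0.55 ± 0.19 in AKVPL (adjusted p = 0.0268), and the difference of these effects was -1.95 ± 0.27 (adjusted p = 0.000194). The AKVPL sort call was lost without any 1 of AKVPL GFP+ replicates 3 and 4, AKVPL GFP- replicates 1, 2 and 4, AKVPSL GFP+ replicate 1 and AKVPSL GFP- replicates 1 and 4 (0.46 to 0.56).

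Irf9 (chromosome 14, 55603985 to 55610030), the DNA-binding subunit of ISGF3, differed mainly by genotype. Irf9 had 28.5, 31.2, 37.3 and 36.4 CPM in the AKVPSL GFP+ libraries and 25.5, 29.8, 34.1 and 25.4 CPM in the AKVPSL GFP- libraries. For Irf9, the AKVPL GFP+ libraries had 160.2, 145, 149.7 and 144 CPM and the AKVPL GFP- libraries 125, 110.0, 127 and 116 CPM. The sorts overlapped in AKVPSL and not in AKVPL, and the genotypes did not overlap. Irf9 fell by 2.17 ± 0.11 in GFP+ cells and by 2.06 ± 0.11 in GFP- cells (edgeR adjusted p = 1.27e-11 and 3.54e-11). Its sort effect was 0.22 ± 0.11 in AKVPSL (edgeR adjusted p = 0.1) and 0.33 ± 0.10 in AKVPL (adjusted p = 0.0178). The AKVPL call was lost without any 1 of AKVPL GFP+ replicate 1, AKVPL GFP- replicate 2, AKVPSL GFP+ replicate 1 and AKVPSL GFP- replicates 1 and 4 (0.25 to 0.30), and the AKVPSL effect passed without AKVPSL GFP- replicate 3 (0.31).

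Usp18 (chromosome 6, 121245906 to 121270917), the protease that removes Isg15 from proteins and damps the receptor, moved in the same direction as the activators. Usp18 had 9.76, 13.6, 13.5 and 14.1 CPM in the AKVPSL GFP+ libraries and 11.8, 13.4, 20.9 and 16.9 CPM in the AKVPSL GFP- libraries. For Usp18, the AKVPL GFP+ libraries had 152, 128, 129 and 146 CPM and the AKVPL GFP- libraries 123, 104, 105 and 126 CPM. The lowest AKVPL library was well above the highest AKVPSL library. Usp18 fell by 3.45 ± 0.16 in GFP+ cells and by 2.87 ± 0.16 in GFP- cells (edgeR adjusted p = 4.43e-12 and 5.94e-11). Between sorts it did not pass in AKVPSL (-0.30 ± 0.15) or in AKVPL (0.28 ± 0.15), nor did the difference (-0.58 ± 0.21, edgeR adjusted p = 0.058). With replicate number as a block the values were -0.29, adjusted p = 0.0299 in AKVPSL, 0.28, adjusted p = 0.0277 in AKVPL and -0.57, adjusted p = 0.0104 for the difference, by edgeR. The AKVPSL effect passed without AKVPSL GFP- replicate 1 (-0.50), and the difference passed without any 1 of AKVPSL GFP- replicates 1 and 2 (-0.65 to -0.69).

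Stat2, a subunit of ISGF3, averaged 21.0 ± 5.02 CPM in AKVPSL GFP+ and 28.3 ± 10.1 CPM in AKVPSL GFP-, against 148 ± 12.3 CPM in AKVPL GFP+ and 117 ± 7.26 CPM in AKVPL GFP- (SD, n = 4 each). Stat2 fell by 2.82 ± 0.20 in GFP+ cells and by 2.05 ± 0.20 in GFP- cells between the genotypes (edgeR adjusted p = 4.14e-09 and 1.4e-07). It passed in neither sort comparison, although the AKVPSL effect (-0.43) passed without any 1 of AKVPSL GFP+ replicate 3 and AKVPSL GFP- replicate 4 (-0.60 to -0.67) and the difference (-0.77) without any 1 of AKVPSL GFP+ replicate 3 and AKVPSL GFP- replicate 4 (-0.93 to -0.95). The difference was -0.74, adjusted p = 0.0321 by edgeR with a replicate block. Irf1, a factor that interferon gamma induces most directly, differed least of the regulators: it averaged 71.2 ± 7.71 CPM in AKVPSL GFP+ and 65.2 ± 8.35 CPM in AKVPSL GFP-, against 105 ± 13.1 CPM in AKVPL GFP+ and 88.6 ± 9.19 CPM in AKVPL GFP-. Irf1 fell by 0.57 ± 0.11 in GFP+ cells and by 0.44 ± 0.12 in GFP- cells, without overlap in either (edgeR adjusted p = 0.000408 and 0.00265). Its sort effect in AKVPL was 0.25 ± 0.11 (edgeR adjusted p = 0.0921), and 0.25, adjusted p = 0.0275 with a replicate block.

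Oas proteins sense double-stranded RNA and make the 2'-5' oligoadenylates that activate RNase L. Oas2 (chromosome 5, 120730333 to 120749886) had the largest genotype difference of the set. Oas2 had 2.33, 2.88, 2.1 and 3.82 CPM in the AKVPSL GFP+ libraries and 4.88, 8.16, 8.33 and 4.31 CPM in the AKVPSL GFP- libraries. For Oas2, the AKVPL GFP+ libraries had 278, 202, 281 and 249 CPM and the AKVPL GFP- libraries 121, 81.6, 114 and 102 CPM. The highest AKVPSL value was 8.33 CPM and the lowest AKVPL value 81.6 CPM. Oas2 fell by 6.52 ± 0.25 in GFP+ cells, a 91.8-fold difference, and by 4.04 ± 0.23 in GFP- cells (edgeR adjusted p = 2.51e-12 and 2.7e-10). Between sorts it was -1.21 ± 0.23 in AKVPSL (edgeR adjusted p = 0.000572) and 1.27 ± 0.20 in AKVPL (adjusted p = 9.58e-05), with a difference of -2.48 ± 0.30 (adjusted p = 6.04e-05).

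Oas3 (chromosome 5, 120753098 to 120777684), the largest Oas enzyme, had the same order of groups as Oas2. Oas3 had 1.56, 1.77, 2.1 and 1.77 CPM in the AKVPSL GFP+ libraries and 3.05, 4.1, 4.87 and 2.78 CPM in the AKVPSL GFP- libraries. For Oas3, the AKVPL GFP+ libraries had 46.7, 36.0, 45.8 and 47.5 CPM and the AKVPL GFP- libraries 23.6, 19.4, 21.7 and 29.5 CPM. The AKVPL GFP+ libraries lay above all others and the AKVPSL GFP+ libraries below all others. Oas3 fell by 4.61 ± 0.19 in GFP+ cells and by 2.67 ± 0.18 in GFP- cells (edgeR adjusted p = 1.05e-12 and 6.82e-10). GFP+ minus GFP- was -1.03 ± 0.19 in AKVPSL and 0.91 ± 0.16 in AKVPL (edgeR adjusted p = 0.000295 and 0.000266), and the difference was -1.94 ± 0.25 (adjusted p = 5.99e-05).

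Oasl2 (chromosome 5, 114896926 to 114912245), an Oas-like protein, had that order as well. Oasl2 had 3.94, 7.13, 6.4 and 6.86 CPM in the AKVPSL GFP+ libraries and 10.6, 15.8, 16.2 and 10.5 CPM in the AKVPSL GFP- libraries. For Oasl2, the AKVPL GFP+ libraries had 131, 100.4, 119.8 and 130.0 CPM and the AKVPL GFP- libraries 94.5, 67.6, 78.7 and 91.9 CPM. Neither genotype showed an overlap between its sorts. Oasl2 fell by 4.31 ± 0.20 in GFP+ cells and by 2.65 ± 0.19 in GFP- cells (edgeR adjusted p = 9.77e-12 and 2.16e-09). The sort effect was -1.13 ± 0.19 in AKVPSL and 0.53 ± 0.17 in AKVPL (edgeR adjusted p = 0.000149 and 0.0216), and the difference -1.67 ± 0.26 (adjusted p = 0.000346). The AKVPL call was lost without any 1 of AKVPL GFP+ replicates 1 and 4, AKVPL GFP- replicates 2 and 3 and AKVPSL GFP- replicate 1 (0.44 to 0.51). Oas1a, an active synthetase, fell by 4.10 ± 0.24 in GFP+ cells and by 2.72 ± 0.22 in GFP- cells between genotypes, and by 1.20 ± 0.23 in AKVPSL GFP+ against GFP- cells, with 0.18 ± 0.20 in AKVPL. Oasl1, which lacks that enzymatic activity and is known to restrain Irf7 translation, had the smallest difference of the family, with values of -1.59 in GFP+ and -1.35 in GFP- cells, and passed in neither sort comparison (-0.11 and 0.14). Of the 5 Oas genes, 4 were lower in AKVPSL GFP+ than GFP- cells (background 24.6%) and 3 were higher in AKVPL GFP+ than GFP- cells (background 22.6%). The AKVPL call of Oasl2 was lost under 6 other settings (0.22 to 0.45).

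Ifit proteins bind viral RNA and block its translation. Their median sort effect in AKVPSL, -1.88, was the lowest of the families. Ifit3 (chromosome 19, 34583119 to 34588982) was the clearest. Ifit3 had 0.223, 0.435, 0.633 and 0.698 CPM in the AKVPSL GFP+ libraries and 1.9, 2.34, 4.25 and 2.06 CPM in the AKVPSL GFP- libraries. For Ifit3, the AKVPL GFP+ libraries had 9.54, 8.74, 10.3 and 14.4 CPM and the AKVPL GFP- libraries 10.7, 8.01, 10.7 and 8.47 CPM. The AKVPSL GFP+ libraries were all under 1 CPM and below all others, while the AKVPL fractions overlapped. Ifit3 fell by 4.47 ± 0.33 in GFP+ cells and by 1.85 ± 0.28 in GFP- cells (edgeR adjusted p = 2.01e-09 and 1.65e-05). Its sort effect was -2.44 ± 0.33 in AKVPSL (edgeR adjusted p = 1.97e-05) and 0.18 ± 0.26 in AKVPL (adjusted p = 0.621), with a difference of -2.61 ± 0.42 (adjusted p = 0.000452). Summed counts of the 4 AKVPSL GFP+ libraries were 58 for Ifit3, 83 for Ifit2 and 27 for Ifit3b, and the SE of their log2 values is large.

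Ifit3b (chromosome 19, 34607530 to 34613403) is a near copy of Ifit3. Ifit3b had 0.05, 0.134, 0.233 and 0.575 CPM in the AKVPSL GFP+ libraries and 0.491, 0.525, 0.797 and 0.524 CPM in the AKVPSL GFP- libraries. For Ifit3b, the AKVPL GFP+ libraries had 5.14, 3.96, 4.8 and 4.54 CPM and the AKVPL GFP- libraries 3.01, 2.35, 2.42 and 3.47 CPM. AKVPSL GFP+ replicate 4 overlapped the AKVPSL GFP- libraries. Ifit3b fell by 4.31 ± 0.41 in GFP+ cells and by 2.25 ± 0.37 in GFP- cells (edgeR adjusted p = 5.54e-08 and 4.2e-05). Between sorts it was at -1.33 ± 0.45 in AKVPSL and 0.72 ± 0.33 in AKVPL (edgeR adjusted p = 0.0211 and 0.0859). The AKVPSL call was lost without any 1 of AKVPSL GFP+ replicate 2 and AKVPSL GFP- replicate 3 (-1.14 to -1.15), and the AKVPL effect passed without AKVPSL GFP+ replicate 4 (0.73). Of the 50-base stretches of Ifit3 transcripts, 51.2% also occur in Ifit3b, and 44.95% of those of Ifit3b occur in another, mostly Ifit3, so unique alignment discards part of their reads and the split between them is uncertain.

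Ifit1 (chromosome 19, 34640889 to 34650009), which binds viral RNA caps, passed between genotypes and not between sorts. Ifit1 had 3.17, 3.55, 6.96 and 3.2 CPM in the AKVPSL GFP+ libraries and 2.69, 6.96, 8.68 and 4.51 CPM in the AKVPSL GFP- libraries. For Ifit1, the AKVPL GFP+ libraries had 48.1, 32.4, 43.1 and 46.0 CPM and the AKVPL GFP- libraries 33.6, 23.8, 27.0 and 33.4 CPM. AKVPSL GFP+ and GFP- libraries overlapped, as did the AKVPL fractions. Ifit1 fell by 3.33 ± 0.32 in GFP+ cells and by 2.38 ± 0.32 in GFP- cells (edgeR adjusted p = 3.56e-07 and 8.79e-06). Its sort effects did not pass, at -0.42 ± 0.32 in AKVPSL and 0.53 ± 0.29 in AKVPL, nor did their difference (-0.95 ± 0.43, edgeR adjusted p = 0.129). With a replicate block the AKVPL effect was 0.52, adjusted p = 0.00814 and the difference -0.92, adjusted p = 0.00819, by edgeR. The AKVPSL effect passed without any 1 of AKVPSL GFP+ replicate 3 and AKVPSL GFP- replicate 1 (-0.75 to -0.77) and the difference without any 1 of AKVPSL GFP+ replicate 3 and AKVPSL GFP- replicate 1 (-1.19 to -1.30). Ifit2, a proapoptotic family member, fell by 2.63 ± 0.37 in AKVPSL GFP+ against GFP- cells, with -0.18 ± 0.31 in AKVPL, and by 3.82 ± 0.37 and 1.36 ± 0.32 between genotypes in GFP+ and GFP- cells.

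The Parp group comprises members of the ADP-ribosyltransferase family and Dtx3l, the ubiquitin ligase that pairs with Parp9. Its median genotype difference was -2.003 in GFP+ cells, the smallest in size of the families, and -1.81 in GFP- cells. In AKVPSL, 2 of its 4 genes were higher in GFP+ than GFP- cells (background 22.4%) and none lower (background 24.6%). Parp9 (chromosome 16, 35938470 to 35972621) was one of them. Parp9 had 32.7, 33.8, 31.0 and 30.8 CPM in the AKVPSL GFP+ libraries and 22.5, 28.8, 26.1 and 22.4 CPM in the AKVPSL GFP- libraries. For Parp9, the AKVPL GFP+ libraries had 110.4, 84.9, 84.3 and 109 CPM and the AKVPL GFP- libraries 70.6, 57.8, 56.8 and 72.6 CPM. GFP+ libraries lay above GFP- libraries in both genotypes. Parp9 fell by 1.60 ± 0.12 in GFP+ cells and by 1.37 ± 0.12 in GFP- cells between genotypes (edgeR adjusted p = 2.37e-09 and 2.02e-08). The sort effect was 0.36 ± 0.12 in AKVPSL and 0.59 ± 0.12 in AKVPL (edgeR adjusted p = 0.0173 and 0.000615), and the AKVPSL call was lost without any 1 of AKVPSL GFP+ replicate 1 and AKVPSL GFP- replicates 1 and 4 (0.23 to 0.27). With epithelial scaling both calls were lost (0.28 in each genotype).

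Dtx3l (chromosome 16, 35926515 to 35939027) overlaps Parp9 on the chromosome, and reads from the shared stretch cannot be assigned without strand, which the sources used here do not give. Dtx3l had 21.0, 21.8, 25.6 and 22.4 CPM in the AKVPSL GFP+ libraries and 12.7, 11.9, 11.7 and 16.1 CPM in the AKVPSL GFP- libraries. For Dtx3l, the AKVPL GFP+ libraries had 77.3, 54.6, 54.5 and 71.2 CPM and the AKVPL GFP- libraries 49.9, 34.4, 36.4 and 53.3 CPM. The GFP- libraries were the lower ones in each genotype, with no overlap. Dtx3l fell by 1.51 ± 0.16 in GFP+ cells and by 1.73 ± 0.16 in GFP- cells (edgeR adjusted p = 1.95e-07 and 4.13e-08). The sort effects were 0.79 ± 0.16 in AKVPSL and 0.57 ± 0.15 in AKVPL (edgeR adjusted p = 0.000571 and 0.0068), with a difference of 0.22 ± 0.22 (adjusted p = 0.49).

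Parp12 (chromosome 6, 39086412 to 39118349), an ADP-ribosyltransferase, had close sorts and separate genotypes. Parp12 had 11.4, 15.03, 13.5 and 14.2 CPM in the AKVPSL GFP+ libraries and 14.4, 15.69, 17.1 and 16.5 CPM in the AKVPSL GFP- libraries. For Parp12, the AKVPL GFP+ libraries had 75.4, 66.3, 65.8 and 80.0 CPM and the AKVPL GFP- libraries 60.1, 53.6, 53.1 and 69.9 CPM. Each genotype's GFP+ and GFP- libraries overlapped. Parp12 fell by 2.41 ± 0.12 in GFP+ cells and by 1.89 ± 0.12 in GFP- cells (edgeR adjusted p = 6.75e-12 and 1.9e-10). The sort effect was -0.24 ± 0.11 in AKVPSL (-0.24, adjusted p = 0.0317 with a replicate block) and 0.28 ± 0.11 in AKVPL (edgeR adjusted p = 0.0496), and -0.03 in AKVPL with epithelial scaling. The difference was -0.52 ± 0.16 (edgeR adjusted p = 0.0272). The AKVPL call was lost without any 1 of AKVPL GFP+ replicates 1 and 4, AKVPL GFP- replicates 1, 2 and 3, AKVPSL GFP+ replicates 1, 3 and 4 and AKVPSL GFP- replicates 1 and 4 (0.19 to 0.29), and that for the difference without any 1 of AKVPL GFP+ replicates 1 and 4, AKVPL GFP- replicates 2 and 3 and AKVPSL GFP+ replicate 1 (-0.44 to -0.49). The AKVPSL effect passed without AKVPSL GFP- replicate 1 (-0.36). Parp14, another such enzyme, fell by 2.67 ± 0.17 in GFP+ cells and by 2.24 ± 0.17 in GFP- cells, with sort effects of 0.03 in AKVPSL and 0.46 in AKVPL. Its AKVPL sort call was lost without any 1 of AKVPL GFP+ replicates 1 and 4, AKVPL GFP- replicates 2 and 3, AKVPSL GFP+ replicate 1 and AKVPSL GFP- replicates 1 and 4 (0.37 to 0.47), and the difference (-0.43) was -0.45, adjusted p = 0.0243 by edgeR with a replicate block.

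Guanylate-binding proteins are large GTPases that coat and break the vacuoles of intracellular microbes, and interferon gamma is their best-known inducer. All 3 were lower in AKVPSL in both fractions and lower in AKVPSL GFP+ than GFP- cells. Gbp3 (chromosome 3, 142560016 to 142573213) passed in both sort comparisons, in opposite directions. Gbp3 had 7.03, 10.9, 12.2 and 10.3 CPM in the AKVPSL GFP+ libraries and 11.7, 16.6, 19.6 and 13.9 CPM in the AKVPSL GFP- libraries. For Gbp3, the AKVPL GFP+ libraries had 76.2, 67.6, 71.7 and 74.3 CPM and the AKVPL GFP- libraries 54.5, 39.5, 51.3 and 41.2 CPM. GFP+ and GFP- libraries overlapped in AKVPSL and not in AKVPL, where GFP+ was the higher. Gbp3 fell by 2.85 ± 0.17 in GFP+ cells and by 1.60 ± 0.17 in GFP- cells (edgeR adjusted p = 1.65e-10 and 1.95e-07). GFP+ minus GFP- was -0.61 ± 0.17 in AKVPSL and 0.63 ± 0.16 in AKVPL (edgeR adjusted p = 0.00607 and 0.00458), with a difference of -1.25 ± 0.23 (adjusted p = 0.00145).

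Gbp7 (chromosome 3, 142530336 to 142550151), whose promoter window holds both elements, was lower in GFP+ libraries throughout. Gbp7 had 1.34, 2.28, 2.13 and 2.71 CPM in the AKVPSL GFP+ libraries and 3.54, 5.15, 8.64 and 5.76 CPM in the AKVPSL GFP- libraries. For Gbp7, the AKVPL GFP+ libraries had 18.8, 14.8, 17.3 and 17.1 CPM and the AKVPL GFP- libraries 26.3, 20.2, 20.4 and 25.6 CPM. GFP+ libraries were the lower ones in both genotypes, without overlap. Gbp7 fell by 3.02 ± 0.24 in GFP+ cells and by 2.00 ± 0.23 in GFP- cells (edgeR adjusted p = 6.23e-09 and 5.21e-07). The sort effect was -1.46 ± 0.24 in AKVPSL (edgeR adjusted p = 0.000112) and -0.44 ± 0.22 in AKVPL (adjusted p = 0.114, and -0.44, adjusted p = 0.0231 with a replicate block). The AKVPL effect passed without any 1 of AKVPSL GFP+ replicate 1 and AKVPSL GFP- replicate 1 (-0.53). The difference was -1.02 ± 0.32 (edgeR adjusted p = 0.0316) and lost its call without any 1 of AKVPL GFP+ replicate 1, AKVPL GFP- replicates 2 and 3, AKVPSL GFP+ replicates 1 and 3 and AKVPSL GFP- replicate 3 (-0.76 to -1.03). Gbp2 fell by 2.86 ± 0.26 and 1.85 ± 0.24 between genotypes in GFP+ and GFP- cells and by 1.22 ± 0.25 in AKVPSL GFP+ against GFP- cells, with -0.22 ± 0.23 in AKVPL. Its difference of sort effects (-1.01) passed with all libraries, and the call was lost without any 1 of AKVPL GFP+ replicates 1, 2, 3 and 4, AKVPL GFP- replicates 1, 2, 3 and 4, AKVPSL GFP+ replicates 1, 2 and 4 and AKVPSL GFP- replicate 3 (-0.75 to -1.07).

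Immunity-related GTPases of the Irg group act on parasite vacuoles. Igtp (chromosome 11, 58199556 to 58207592), also known as Irgm3, showed a large genotype difference. Igtp had 1.66, 2.41, 2.56 and 2.26 CPM in the AKVPSL GFP+ libraries and 2.39, 3.96, 4.08 and 2.9 CPM in the AKVPSL GFP- libraries. For Igtp, the AKVPL GFP+ libraries had 33.1, 20.7, 27.2 and 28.9 CPM and the AKVPL GFP- libraries 25.7, 18.4, 21.98 and 22.1 CPM. The highest AKVPSL library had 4.08 CPM and the lowest AKVPL library 18.4 CPM. Igtp fell by 3.63 ± 0.20 in GFP+ cells and by 2.74 ± 0.20 in GFP- cells (edgeR adjusted p = 4.92e-11 and 1.66e-09). Its sort effect was -0.58 ± 0.20 in AKVPSL (edgeR adjusted p = 0.0252) and 0.32 ± 0.18 in AKVPL (adjusted p = 0.168, and 0.31, adjusted p = 0.031 with a replicate block), with a difference of -0.90 ± 0.27 (adjusted p = 0.0253). The AKVPSL call was lost without any 1 of AKVPSL GFP- replicates 2 and 3 (-0.47 to -0.49), and that for the difference without any 1 of AKVPL GFP+ replicate 1, AKVPL GFP- replicate 2, AKVPSL GFP+ replicate 1 and AKVPSL GFP- replicates 2 and 3 (-0.77 to -0.82).

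Irgm1 (chromosome 11, 48865245 to 48871420), which regulates the other Irg proteins and autophagy, had a smaller genotype difference than Igtp. Irgm1 had 20.4, 24.3, 25.4 and 22.9 CPM in the AKVPSL GFP+ libraries and 21.1, 21.99, 21.1 and 17.7 CPM in the AKVPSL GFP- libraries. For Irgm1, the AKVPL GFP+ libraries had 102, 73.7, 79.9 and 84.5 CPM and the AKVPL GFP- libraries 72.1, 45.9, 58.7 and 63.3 CPM. The AKVPSL fractions overlapped and the AKVPL fractions did not, GFP+ being the higher. Irgm1 fell by 1.87 ± 0.13 in GFP+ cells and by 1.55 ± 0.13 in GFP- cells (edgeR adjusted p = 1.33e-09 and 1.72e-08), and its sort effects were 0.19 ± 0.13 in AKVPSL and 0.51 ± 0.13 in AKVPL (adjusted p = 0.261 and 0.00477). Iigp1, an effector GTPase of the group, averaged 0.577 ± 0.201 CPM in AKVPSL GFP+ and 0.634 ± 0.187 CPM in AKVPSL GFP-, against 10.8 ± 2.4 CPM in AKVPL GFP+ and 5.58 ± 1.51 CPM in AKVPL GFP- (SD, n = 4 each). Iigp1 fell by 4.22 ± 0.30 in GFP+ cells and by 3.14 ± 0.30 in GFP- cells, and its sort effects were -0.13 ± 0.33 in AKVPSL and 0.95 ± 0.25 in AKVPL. The difference for Iigp1 (-1.08) did not pass. It was -1.13, adjusted p = 0.0138 by edgeR with a replicate block, and it passed without AKVPSL GFP- replicate 4 (-1.28).

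The 17 other effectors were all lower in AKVPSL GFP+ than AKVPL GFP+ cells, with log2 values from -5.14 (Ifi44) to -0.64 (Ifitm3) and a median of -3.33. In GFP- cells 16 were lower, with a median of -1.71. Cmpk2 (chromosome 12, 26469117 to 26479837), a mitochondrial nucleotide kinase that neighbours Rsad2, had the smallest adjusted p in both fractions. Cmpk2 had 1.56, 2.91, 3.56 and 2.05 CPM in the AKVPSL GFP+ libraries and 2.33, 3.43, 4.39 and 3.14 CPM in the AKVPSL GFP- libraries. For Cmpk2, the AKVPL GFP+ libraries had 37.8, 34.1, 38.3 and 37.1 CPM and the AKVPL GFP- libraries 27.0, 22.6, 21.6 and 29.3 CPM. Every AKVPL value was several times every AKVPSL value. Cmpk2 fell by 3.87 ± 0.22 in GFP+ cells and by 2.92 ± 0.22 in GFP- cells (edgeR adjusted p = 7.28e-11 and 2.34e-09). Its effect of the sort was -0.39 ± 0.22 in AKVPSL (-0.42, adjusted p = 0.0206 with a replicate block) and 0.55 ± 0.19 in AKVPL (edgeR adjusted p = 0.0302). The AKVPL call was lost without any 1 of AKVPL GFP+ replicates 1, 3 and 4, AKVPL GFP- replicates 2 and 3 and AKVPSL GFP- replicates 1 and 4 (0.47 to 0.56), and the call for the difference (-0.95) without any 1 of AKVPL GFP+ replicate 1, AKVPL GFP- replicates 2 and 3, AKVPSL GFP+ replicates 1 and 4 and AKVPSL GFP- replicate 3 (-0.76 to -0.94). The AKVPSL effect passed without any 1 of AKVPSL GFP+ replicate 3 and AKVPSL GFP- replicate 1 (-0.61 to -0.62).

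Mx1 (chromosome 16, 97447035 to 97462906), a dynamin-like GTPase that traps influenza virus components, had the smallest adjusted p of the effectors for the difference of sort effects. Mx1 had 5.62, 6.53, 8.26 and 5.88 CPM in the AKVPSL GFP+ libraries and 13.5, 17.5, 13.3 and 10.9 CPM in the AKVPSL GFP- libraries. For Mx1, the AKVPL GFP+ libraries had 36.7, 26.9, 27.9 and 39.8 CPM and the AKVPL GFP- libraries 28.8, 27.9, 27.1 and 32.3 CPM. GFP+ libraries were below GFP- libraries in AKVPSL, and the AKVPL fractions overlapped. Mx1 fell by 2.32 ± 0.17 in GFP+ cells and by 1.07 ± 0.16 in GFP- cells (edgeR adjusted p = 1.61e-09 and 1.57e-05). Its sort effect was -1.07 ± 0.17 in AKVPSL and 0.18 ± 0.16 in AKVPL (edgeR adjusted p = 6.62e-05 and 0.392), with a difference of -1.25 ± 0.23 (adjusted p = 0.00123). Mx2, its neighbour on the chromosome, fell by 3.67 ± 0.27 in GFP+ cells, by 2.41 ± 0.26 in GFP- cells and by 0.83 ± 0.27 in AKVPSL GFP+ against GFP- cells, a call lost without any 1 of AKVPSL GFP+ replicate 4 and AKVPSL GFP- replicates 2 and 3 (-0.66 to -0.69). In AKVPL the sort effect of Mx2 was 0.43 ± 0.24, and 0.46, adjusted p = 0.0159 by edgeR with a replicate block.

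Trim30a (chromosome 7, 104409025 to 104465193), a regulator of inflammatory signalling, was the gene lower in GFP+ cells of both genotypes. Trim30a had 1.21, 1.77, 2.6 and 2.18 CPM in the AKVPSL GFP+ libraries and 4.78, 6.34, 16.8 and 10.8 CPM in the AKVPSL GFP- libraries. For Trim30a, the AKVPL GFP+ libraries had 15.72, 15.02, 18.8 and 19.0 CPM and the AKVPL GFP- libraries 32.8, 27.4, 29.0 and 28.5 CPM. AKVPSL GFP- replicate 3 reached the range of the AKVPL GFP+ libraries, and in each genotype the sorts did not overlap. Trim30a fell by 3.15 ± 0.32 in GFP+ cells and by 1.61 ± 0.29 in GFP- cells between genotypes (edgeR adjusted p = 3.92e-07 and 0.000159). GFP+ minus GFP- was -2.33 ± 0.32 in AKVPSL and -0.78 ± 0.29 in AKVPL (edgeR adjusted p = 3.57e-05 and 0.0387), and the AKVPL call was lost without any 1 of AKVPL GFP+ replicates 1, 2, 3 and 4 and AKVPL GFP- replicates 1, 2, 3 and 4 (-0.72 to -0.83). Leukocyte markers were also lower in GFP+ than in GFP- libraries of both genotypes, and their part in the Trim30a values was not tested.

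Eif2ak2 (chromosome 17, 78850504 to 78882572), the kinase PKR that halts translation on double-stranded RNA, was higher in GFP+ cells, like Parp9 and Dtx3l. Eif2ak2 had 27.7, 25.2, 30.7 and 31.4 CPM in the AKVPSL GFP+ libraries and 21.3, 25.2, 18.5 and 23.1 CPM in the AKVPSL GFP- libraries. For Eif2ak2, the AKVPL GFP+ libraries had 83.8, 74.8, 64.3 and 77.4 CPM and the AKVPL GFP- libraries 57.1, 43.0, 42.6 and 58.5 CPM. GFP+ libraries were the higher ones in AKVPL, and in AKVPSL the lowest GFP+ and the highest GFP- library were both at 25.2 CPM. Eif2ak2 fell by 1.38 ± 0.13 in GFP+ cells and by 1.19 ± 0.13 in GFP- cells between genotypes (edgeR adjusted p = 4.66e-08 and 3.24e-07). The sort effect was 0.39 ± 0.13 in AKVPSL and 0.58 ± 0.13 in AKVPL (edgeR adjusted p = 0.02 and 0.00149), and the AKVPSL call was lost without any 1 of AKVPSL GFP+ replicates 1, 3 and 4 and AKVPSL GFP- replicates 1, 3 and 4 (0.29 to 0.35).

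Ifitm3 (chromosome 7, 141009590 to 141010744), a membrane protein that blocks virus entry, had the highest deposited RPKM of the set in every group. Ifitm3 had 667, 738, 591 and 650.3 CPM in the AKVPSL GFP+ libraries and 567, 711, 464 and 410.2 CPM in the AKVPSL GFP- libraries. For Ifitm3, the AKVPL GFP+ libraries had 1057, 959, 984 and 1112 CPM and the AKVPL GFP- libraries 659, 642, 773 and 581 CPM. AKVPSL GFP+ libraries were below AKVPL GFP+ libraries, while the GFP- libraries of the genotypes overlapped. Ifitm3 fell by 0.64 ± 0.14 in GFP+ cells (edgeR adjusted p = 0.00081). Its sort effect was 0.30 ± 0.14 in AKVPSL (0.33, adjusted p = 0.0275 with a replicate block) and 0.63 ± 0.14 in AKVPL (edgeR adjusted p = 0.00155). The AKVPSL effect passed without AKVPSL GFP- replicate 2 (0.46). Of its 50-base stretches, 10.02% occur in transcripts of other genes, among them Ifitm2.

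Isg15, the ubiquitin-like modifier, averaged 5.19 ± 2.25 CPM in AKVPSL GFP+ and 14.8 ± 6.02 CPM in AKVPSL GFP-, against 58.6 ± 5.34 CPM in AKVPL GFP+ and 48.3 ± 3.99 CPM in AKVPL GFP- (SD, n = 4 each). Isg15 fell by 3.50 ± 0.30 in GFP+ cells, by 1.71 ± 0.28 in GFP- cells and by 1.51 ± 0.29 in AKVPSL GFP+ against GFP- cells (edgeR adjusted p = 8.63e-08, 6.7e-05 and 0.000621). In AKVPL its sort effect was 0.28 ± 0.27, and 0.28, adjusted p = 0.0251 by edgeR with a replicate block. Herc6, the ligase that attaches Isg15 in mouse, fell by 1.65 ± 0.16 and 1.22 ± 0.16 between genotypes in GFP+ and GFP- cells, and its AKVPSL sort effect (-0.31) passed without AKVPSL GFP- replicate 1 (-0.47). Rsad2, viperin, which makes a chain-terminating nucleotide, fell by 3.33 ± 0.34 and 2.44 ± 0.33, and its AKVPSL sort effect (-0.75) passed without any 1 of AKVPSL GFP+ replicate 3 and AKVPSL GFP- replicate 1 (-1.02 to -1.04) and was -0.78, adjusted p = 0.00715 by edgeR with a replicate block. Bst2, tetherin, which holds budding virus at the membrane, averaged 10.3 ± 2.43 CPM in AKVPSL GFP+ and 34.0 ± 19.4 CPM in AKVPSL GFP-, against 114 ± 11.2 CPM in AKVPL GFP+ and 116 ± 18.4 CPM in AKVPL GFP-. Bst2 fell by 3.47 ± 0.31 and 1.78 ± 0.28 between genotypes and by 1.73 ± 0.29 between the AKVPSL sorts, with -0.03 ± 0.27 in AKVPL.

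Ifi44 had after Oas2 the largest genotype difference of the set and averaged 1.62 ± 0.82 CPM in AKVPSL GFP+ and 3.02 ± 1.43 CPM in AKVPSL GFP-, against 57.0 ± 3.71 CPM in AKVPL GFP+ and 33.9 ± 6.98 CPM in AKVPL GFP- (SD, n = 4 each). Ifi44 fell by 5.14 ± 0.36 in GFP+ cells and by 3.50 ± 0.34 in GFP- cells (edgeR adjusted p = 9.64e-09 and 3.12e-07). Neither of its sort effects passed (-0.90 ± 0.36 in AKVPSL and 0.75 ± 0.29 in AKVPL). They were -0.94, adjusted p = 0.00343 and 0.77, adjusted p = 0.00189 by edgeR with a replicate block, and passed without any 1 of AKVPSL GFP+ replicates 2 and 3 and AKVPSL GFP- replicate 4 (-1.10 to -1.23) in AKVPSL and without any 1 of AKVPL GFP- replicate 1, AKVPSL GFP+ replicate 2 and AKVPSL GFP- replicates 2 and 4 (0.66 to 0.89) in AKVPL. Rtp4, a chaperone of G-protein-coupled receptors, fell by 4.81 ± 0.27 and 2.93 ± 0.24 between genotypes in GFP+ and GFP- cells and by 1.33 ± 0.26 between the AKVPSL sorts. In AKVPL its sort effect was 0.55 ± 0.22, and 0.54, adjusted p = 0.00633 by edgeR with a replicate block, and it passed without any 1 of AKVPL GFP+ replicates 2 and 3 and AKVPSL GFP- replicate 3 (0.55 to 0.64). Ifi27l2a, a small interferon-induced protein, fell by 3.03 ± 0.39 in GFP+ cells, and by 2.64 ± 0.39 in AKVPSL GFP+ against GFP- cells, the largest sort effect of the set. In AKVPL it was at -0.67 ± 0.35, with -0.69, adjusted p = 0.0313 by edgeR in the blocked fit, and it passed without AKVPSL GFP- replicate 3 (-0.67).

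The remaining effectors were Ddx60, a helicase, Samd9l, a growth and virus restriction factor, Xaf1, a proapoptotic protein, and Ifi35. Ddx60 fell by 4.02 ± 0.25 and 3.01 ± 0.25 in AKVPSL GFP+ and GFP- cells relative to AKVPL, and its sort effects were -0.03 in AKVPSL and 0.98 ± 0.22 in AKVPL. The call for its difference of sort effects (-1.01) was lost without any 1 of AKVPL GFP+ replicates 1, 2, 3 and 4, AKVPL GFP- replicates 2 and 3, AKVPSL GFP+ replicates 1 and 4 and AKVPSL GFP- replicates 2, 3 and 4 (-0.79 to -1.05). Samd9l fell by 1.81 ± 0.20 and 1.30 ± 0.20, with sort effects of 0.25 in AKVPSL and 0.76 ± 0.20 in AKVPL and a difference of -0.51 (-0.52, adjusted p = 0.04 by edgeR with a replicate block). Xaf1 fell by 3.58 ± 0.23 and 2.52 ± 0.22 between genotypes and by 0.78 ± 0.23 between the AKVPSL sorts, with 0.28 in AKVPL. Ifi35 fell by 1.54 ± 0.13 and 1.13 ± 0.13 between genotypes, and its AKVPSL sort effect (-0.25) passed without any 1 of AKVPSL GFP+ replicate 1 and AKVPSL GFP- replicates 1 and 4 (-0.38 to -0.41). For Rsad2 the difference of sort effects (-0.90) was -0.90, adjusted p = 0.0298 by edgeR with a replicate block.

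**Figure D4:**
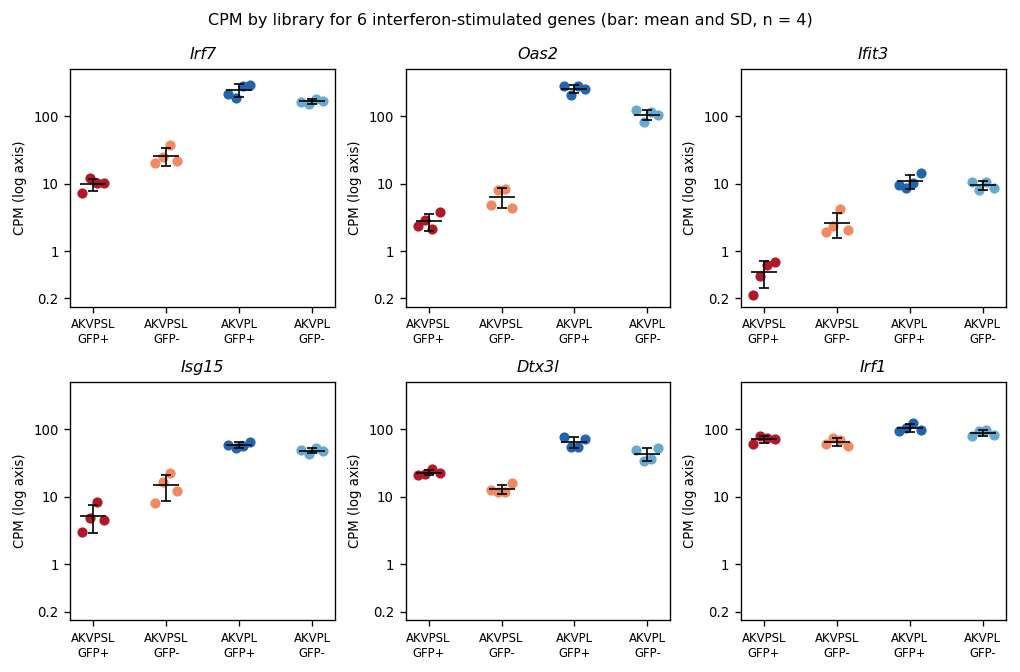
CPM on a log axis (y axis) in each library of the 4 groups (x axis) for 6 genes, with points for libraries and a bar for the mean and SD (n = 4). Irf7, Oas2, Ifit3 and Isg15 are lowest in AKVPSL GFP+, whereas Dtx3l and Irf1 are lowest in AKVPSL GFP-.

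The order of the 4 group means took 3 forms. In 26 genes it ran AKVPL GFP+, AKVPL GFP-, AKVPSL GFP-, AKVPSL GFP+ from high to low. In 9 genes (Irf1, Irf9, Parp9, Parp14, Dtx3l, Irgm1, Eif2ak2, Samd9l and Ifitm3) AKVPSL GFP+ stood above AKVPSL GFP-. In the other 6 (Ifit2, Gbp2, Gbp7, Trim30a, Bst2 and Ifi27l2a) AKVPL GFP- stood above AKVPL GFP+. Between the sorts, neighbours did not pass the test in 18 genes in AKVPSL and 23 genes in AKVPL, whereas the genotype test within each sort passed in all genes except Ifitm3 in GFP- cells. In the 9 and the 6 genes named here, the neighbouring means of AKVPL and AKVPSL came from different sorts, and that step was not tested. On the scale of deposited RPKM, which is per length, Ifitm3 averaged 928 ± 84.8 in AKVPSL GFP+ and 758 ± 188 in AKVPSL GFP-, against 1444 ± 94.6 in AKVPL GFP+ and 998 ± 120.2 in AKVPL GFP- (SD, n = 4 each). The next highest was Irf1 (18.8 ± 2.08 RPKM) in AKVPSL GFP+ and Bst2 in the other groups, at 40.1 ± 22.8 RPKM in AKVPSL GFP-, 134 ± 14.0 in AKVPL GFP+ and 146 ± 23.1 in AKVPL GFP-. The lowest was Ifit3b, at 0.1 ± 0.0933 RPKM in AKVPSL GFP+, 1.87 ± 0.197 in AKVPL GFP+ and 1.22 ± 0.232 in AKVPL GFP-, and Iigp1 in AKVPSL GFP- (0.185 ± 0.0547 RPKM).

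The interferon genes themselves were close to silent. None of 10 ligand genes passed the low-count filter, and Ifna1 and Ifng had 0 counts in all 16 libraries. Ifnb1 reached at most 21 counts in a library, with summed counts of 9 in AKVPSL GFP+, 10 in AKVPSL GFP-, 14 in AKVPL GFP+ and 28 in AKVPL GFP-. With the filter in place, a difference in ligands was therefore not tested.

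Receptor genes went both ways. Ifngr1, the ligand-binding chain of the interferon gamma receptor, was lower in AKVPSL in both fractions, with 44.8 ± 3.43 CPM in AKVPSL GFP+ and 61.7 ± 14.3 CPM in AKVPSL GFP-, against 59.3 ± 5.71 CPM in AKVPL GFP+ and 84.9 ± 4.46 CPM in AKVPL GFP-. Ifngr1 fell by 0.41 ± 0.13 in GFP+ cells and by 0.46 ± 0.13 in GFP- cells (edgeR adjusted p = 0.0107 and 0.00377), where the GFP+ libraries of the genotypes did not overlap and the GFP- libraries did. Ifngr2, its partner chain, did not pass in either fraction (0.05 and -0.08), and its GFP- value passed with epithelial scaling (-0.56). Ifnar1 and Ifnar2, the chains of the type I receptor, named here after their values were seen, differed by 0.03 and -0.16 between genotypes in GFP+ cells and by -0.37 and -0.17 in GFP- cells, and of these the GFP- value of Ifnar1 passed (edgeR adjusted p = 0.00154). Ifnlr1, of the type III receptor, rose by 0.50 ± 0.15 in GFP+ and 0.40 ± 0.15 in GFP- cells, and with epithelial scaling neither passed (0.25 and -0.08). The GFP- call of Ifnlr1 was also lost under 6 other settings. Il10rb, its partner, rose by 0.52 ± 0.10 and 0.68 ± 0.10, and with epithelial scaling neither value passed (0.27 and 0.20). With epithelial scaling Ifnar2 passed as lower in both fractions (-0.40 and -0.64). Of the feedback inhibitors, Socs1 fell by 1.44 ± 0.23 and 0.64 ± 0.22 and Socs3 by 1.66 ± 0.16 and 1.495 ± 0.16, while the phosphatase Ptpn2 rose by 0.76 ± 0.11 and 1.03 ± 0.11. The GFP- call of Socs1 was lost without AKVPSL GFP- replicate 4 or AKVPL GFP- replicate 2 (-0.58 to -0.51). Of 15 genes of interferon signalling, 7 were lower and 3 higher in GFP+ cells, and 10 lower and 3 higher in GFP- cells, with medians of -0.16 and -0.42. Of all genes tested, 28.1% were lower and 24.9% higher in GFP+ cells, and 30.7% were lower and 32.0% higher in GFP- cells.

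Of 8 other interferon regulatory factors, 3 were higher and 3 lower in each fraction, which is near the shares of all genes. Irf8, a factor best known in myeloid cells, rose by 2.12 ± 0.15 in GFP+ cells and 1.15 ± 0.14 in GFP- cells (edgeR adjusted p = 7.62e-10 and 1.34e-06), with 124 ± 11.5 CPM in AKVPSL GFP+ and 123 ± 13.6 CPM in AKVPSL GFP-, against 28.4 ± 4.17 CPM in AKVPL GFP+ and 55.1 ± 12.2 CPM in AKVPL GFP-. Irf4 and Irf5, of leukocytes, fell by 2.64 ± 0.33 and 1.41 ± 0.38 in GFP+ cells, and leukocyte markers were lower there too. Of 15 nucleic acid sensing genes, 9 were lower and 2 higher in GFP+ cells, and 8 lower and 3 higher in GFP- cells (all genes 28.1% lower and 24.9% higher in GFP+, 30.7% and 32.0% in GFP-). Dhx58, an RNA sensor of the RIG-I family, fell by 4.16 ± 0.20 in GFP+ and by 2.64 ± 0.19 in GFP- cells, and Zbp1, a sensor of Z-form nucleic acids, by 4.04 ± 0.23 and 2.65 ± 0.22. Adar, the RNA editing enzyme, fell by 2.21 ± 0.09 and 2.03 ± 0.09. The DNA-sensing genes Sting1 and Aim2 moved the other way and rose by 1.01 ± 0.10 and 0.93 ± 0.14 in GFP+ cells and by 0.46 ± 0.10 and 1.61 ± 0.14 in GFP- cells. With epithelial scaling Sting1 was at -0.01 in GFP- cells.

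Relatives of the set's families, listed apart from it, were lower as well: 18 of 20 tested in GFP+ cells with none higher, and 17 in GFP- cells with 1 higher, with medians of -2.62 and -2.02, where 28.1% of all genes were lower in GFP+ and 30.7% in GFP- cells. Oas1g fell by 4.63 ± 0.20 in GFP+ and by 3.05 ± 0.18 in GFP- cells, and Ifi47, an Irg relative, by 3.77 ± 0.36 and 2.38 ± 0.33. Of the 50-base stretches of Oas1a, 57.6% occur in other genes, mostly Oas1g, so the split between these copies is uncertain. Ifitm1 fell by 1.93 ± 0.13 and 2.32 ± 0.13. Ifitm2 was the exception: it fell by 0.35 ± 0.12 in GFP+ cells and rose by 0.28 ± 0.12 in GFP- cells, where it was at -0.19 with epithelial scaling and did not pass under 7 other settings. Antigen presentation genes were lower for 13 of 16 in GFP+ cells and 12 in GFP- cells, with none higher in either, beside the same 28.1% and 30.7% of all genes. Nlrc5, the activator of class I genes, fell by 5.44 ± 0.25 in GFP+ and by 2.50 ± 0.20 in GFP- cells, Tap1, the peptide transporter, by 4.20 ± 0.26 and 1.98 ± 0.23, and the immunoproteasome subunits Psmb9 and Psmb8 by 3.26 ± 0.40 and 3.03 ± 0.37 in GFP+ cells. In GFP- cells the call of Psmb9 (-0.80 ± 0.34, edgeR adjusted p = 0.0489) was lost on leaving out any 1 of 14 libraries (-0.86 to -0.56), and with no filter or with the GFP- groups alone. The 2 libraries without which it held were AKVPSL GFP+ replicate 4 and AKVPSL GFP- replicate 3.

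Markers of leukocytes and of other cells moved with several of these results. Summed over 24 leukocyte markers, the libraries ran from 47.5 to 223.5 CPM in AKVPSL GFP+, 788 to 3005 CPM in AKVPSL GFP-, 291.5 to 844 CPM in AKVPL GFP+ and 3008 to 5652 CPM in AKVPL GFP-. Within each sort these sums were lower in every AKVPSL library than in every AKVPL library, narrowly so in GFP- cells. Cd3d, Nkg7 and Ms4a1, of lymphocytes, were at 0 in all AKVPSL GFP+ libraries, and Nkg7 and Ms4a1 were at 0 in all AKVPSL GFP- libraries. Of 20 leukocyte markers tested, 11 were lower in AKVPSL than AKVPL in GFP+ cells (median -1.49) and 8 in GFP- cells (median -0.96), with none higher, beside 28.1% and 30.7% of all genes called lower. Sums over 8 mast cell markers separated the genotypes in both sorts, at 12.2 to 20.7 CPM in AKVPSL GFP+ and 36.2 to 149.8 CPM in AKVPSL GFP-, against 67.4 to 94.6 CPM in AKVPL GFP+ and 342 to 724 CPM in AKVPL GFP-. Sums over 16 fibroblast markers were 277.6 to 1338 CPM in AKVPSL GFP+ and 2195 to 3674 CPM in AKVPSL GFP-, against 714 to 1431 CPM in AKVPL GFP+ and 5676 to 12448 CPM in AKVPL GFP-, and separated the genotypes in the GFP- libraries. The endothelial sums given above were higher in AKVPSL GFP+ than in AKVPL GFP+ libraries, without overlap, and overlapped between the genotypes in the GFP- libraries. Gene by gene, 4 of the 14 endothelial markers were higher and 3 lower in AKVPSL GFP+ than AKVPL GFP+ cells (median -0.83). In GFP- cells 2 were higher and 5 lower (median -1.08). Of all genes, 24.9% were higher in GFP+ and 32.0% in GFP- cells, beside the lower shares just given. The geometric mean of the 41 interferon-stimulated genes (CPM plus 0.1) was 4.60 to 7.28 CPM in AKVPSL GFP+, 7.96 to 12.8 CPM in AKVPSL GFP-, 46.6 to 55.2 CPM in AKVPL GFP+ and 36.5 to 44.6 CPM in AKVPL GFP-. AKVPSL GFP- libraries had the lower level of the interferon-stimulated genes beside AKVPL GFP+ libraries, at leukocyte sums of 788 to 3005 CPM and 291.5 to 844 CPM. These groups differ in both genotype and sort, and were not tested against each other. Within AKVPSL, GFP- replicate 3 had the highest leukocyte sum (3005 CPM) and was the highest of its group in 29 of the 41 genes, and GFP+ replicate 1 had the lowest sum (47.5 CPM) and was the lowest of its group in 33. Other AKVPSL libraries did not keep this order. GFP- replicate 2, with the lowest sum of its group, had a geometric mean of 10.6 CPM, above replicates 1 (7.96 CPM) and 4 (8.78 CPM). GFP+ replicate 4, with the highest sum of its group, had 6.38 CPM, below replicate 3 (7.28 CPM). Within AKVPL, GFP+ replicate 2 was the lowest of its group in 29 genes, at a leukocyte sum of 431.7 CPM. The part of leukocytes, mast cells, fibroblasts and endothelium in the genotype and sort differences was not tested. Epithelial marker sums were 12645 to 12964 CPM in AKVPSL GFP+, 13348 to 13931 in AKVPSL GFP-, 11818 to 14909 in AKVPL GFP+ and 10211 to 12560 in AKVPL GFP-.

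**Figure D5:**
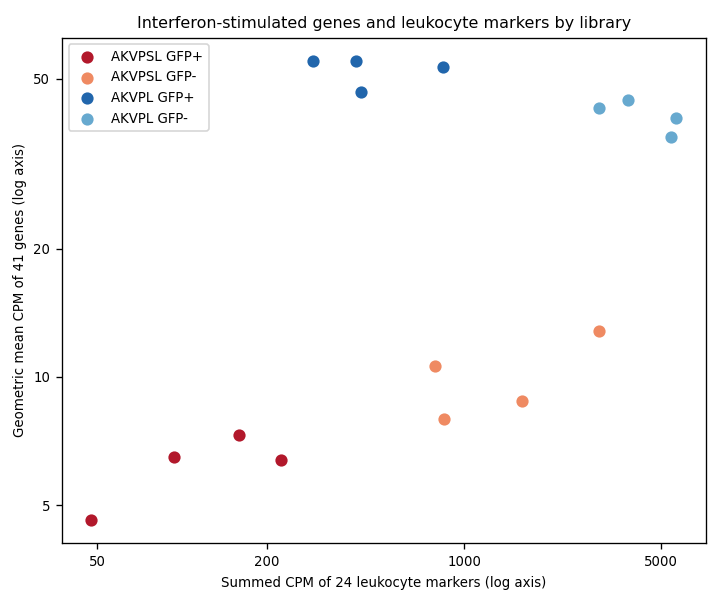
Geometric mean CPM of the 41 interferon-stimulated genes (y axis, log) against the summed CPM of 24 leukocyte markers (x axis, log), 1 point per library. AKVPL libraries lie between 36.5 and 55.2 CPM and AKVPSL libraries between 4.60 and 12.8 CPM. Leukocyte sums overlap between AKVPSL GFP- and AKVPL GFP+ libraries, and not between the genotypes within either sort.

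Set beside the promoter windows of 32 genes, the median log2 value in GFP+ cells was -3.33 for the 18 with a match (range -4.61 to -0.64) and -2.29 for the 14 without (range -5.14 to -0.57). The ranges overlapped, and the 32 genes include neighbours. For the difference of sort effects the medians were -1.02 with a match and -0.52 without. Of 50-base stretches, 23.8% of Herc6, 12.7% of Gbp7, 11.8% of Igtp and 11.6% of Rtp4 also occur in other genes. Several genes sit side by side and may not be independent of one another. Among them are Oas1a, Oas2 and Oas3 on chromosome 5 and the 4 Ifit genes on chromosome 19. The 3 Gbp genes are neighbours on chromosome 3, as are Parp9, Parp14 and Dtx3l on chromosome 16. Positions are those of RefSeq on GRCm38.p6.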

How the data were processed

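RNA of cells sorted by flow cytometry was purified with a micro-column kit, per the labels' protocols, and sequenced in 16 libraries, 4 in each of 4 groups. GSNAP and GRCm38 are named in the submitters' processing notes, and how strand was handled is not stated there. The deposited counts are reads aligned uniquely to each gene model, per the file headers, and the deposited RPKM values are size-factor adjusted, per the file headers. Gene IDs were matched to RefSeq symbols (31049 of 36528). The 41 genes and the other lists were chosen with earlier results of these data known.

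Genes were kept at a minimum count of 10 (0.386 CPM) in at least 4 libraries, which left 18072. They were fitted in edgeR 4.0.16 (R 4.3.3) with TMM factors of 0.936 to 1.086 and glmQLFTest over the 4 groups, with 12 residual degrees of freedom and a biological coefficient of variation of 0.182. Contrasts were GFP+ minus GFP- within each genotype, their difference, and AKVPSL minus AKVPL within each sort. The fitting was tested on simulated data. No within-group pair of libraries was alike within counting noise (chi-square per degree of freedom 9.05 to 73.58). Totals had a median of 25.932 M, and low-count genes are the least precise.

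GFP+ and GFP- libraries of the same replicate number deviated together in every pair (correlations of 0.103 to 0.366). The edgeR fit over the 4 groups did not pair them, and a replicate block was run as an alternative. The labels do not say that the numbers pair libraries. Each AKVPL GFP+ library correlated best with the AKVPL GFP- library of its own number, while AKVPSL libraries numbered 3 and 4 each correlated best with the other number. Between genotypes, libraries of the same number gave correlations of both signs (-0.039 to 0.279), the highest for replicate 1 of the GFP+ groups. Alternatives were a replicate block, DESeq2 1.42.0 size factors and its Wald test, library totals, epithelial marker scaling, no filter, limma 3.58.1 voom, limma-trend on log2(RPKM + 1) or log2(RPKM + 0.1), only the groups compared, and leaving out each library.

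Values per library are given for the gene with the smallest adjusted p in each contrast and family and for the genes of highest and lowest mean RPKM, and from other lists for up to 4 called genes of largest change. Others are named by their place in the text, after their values were seen.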

Additional observations from a re-analysis of the deposited data

Results flagged for a closer look

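In 7 of 164 sets of 4 libraries (41 genes in 4 groups), 1 library stood apart from the other 3 by Dixon's criterion, where chance gives about 1 in 20, or 8.2. Usp18 in AKVPSL GFP+ replicate 1 was at 9.76 CPM, with the others at 13.5 to 14.05 CPM. Oasl1 in AKVPSL GFP+ replicate 3 was at 23.5 CPM, with the others at 11.4 to 12.65 CPM. Ifit1 in the same library was at 6.96 CPM, with the others at 3.17 to 3.55 CPM. Ifit3b in AKVPSL GFP- replicate 3 was at 0.797 CPM, with the others at 0.492 to 0.525 CPM. Oas3 in AKVPL GFP+ replicate 2 was at 36.0 CPM, with the others at 45.8 to 47.5 CPM. Gbp2 in AKVPL GFP+ replicate 1 was at 29.4 CPM, with the others at 26.3 to 26.5 CPM. Ddx60 in AKVPL GFP+ replicate 4 was at 42.2 CPM, with the others at 33.1 to 34.2 CPM.

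For 24 genes the effect of the sort differed between the genotypes, by the edgeR test of the difference itself (AKVPSL minus AKVPL, log2). Of these, 18 kept the call with each library left out, and 13 under every other alternative. Besides the genes named above for epithelial scaling, Ifit2 lost its call with log2(RPKM + 1) (-0.51). Among the regulators the difference was -1.95 for Irf7. In the Oas family it was -2.48 for Oas2, -1.94 for Oas3, -1.67 for Oasl2 and -1.38 for Oas1a. In the Ifit family it was -2.61 for Ifit3, -2.46 for Ifit2 and -2.06 for Ifit3b. Parp12 was at -0.52. The GTPases were at -1.25 for Gbp3, -1.02 for Gbp7, -1.01 for Gbp2 and -0.90 for Igtp. Among the other effectors it was -1.97 for Ifi27l2a, -1.88 for Rtp4, -1.79 for Isg15, -1.70 for Bst2, -1.65 for Ifi44 and -1.54 for Trim30a. It was -1.26 for Mx2, -1.25 for Mx1, -1.06 for Xaf1, -1.01 for Ddx60 and -0.95 for Cmpk2.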

How the results depend on the processing

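The genotype counts held best: 41 genes were lower in GFP+ cells under each alternative run, and 39 to 41 in GFP- cells. For the sort in AKVPL the 17 higher genes became 11 with DESeq2 size factors, library totals, no filter, the DESeq2 Wald test or log2(RPKM + 0.1), and 2 with epithelial scaling, where the median was 0.0209. The count was 15 with log2(RPKM + 1), 20 with only the AKVPL groups, 22 with voom and 25 with the replicate block. The 1 lower gene became 2 with epithelial scaling, voom or log2(RPKM + 1), 3 with the DESeq2 Wald test or the replicate block and 4 with only the AKVPL groups. Over all genes, 4090 higher became 2461, 2674, 713 and 2217 with DESeq2 size factors, totals, epithelial scaling and no filter, 2650 with the Wald test and 2631 and 2558 with log2(RPKM + 1) and log2(RPKM + 0.1), and 2981 lower became 4737 with epithelial scaling. For the sort in AKVPSL, 3 higher genes became 1 with epithelial scaling.

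For the genotype in GFP+ cells, 4502 higher genes overall became 2593 with epithelial scaling, and the median of the 41 was -2.25 with log2(RPKM + 1). In GFP- cells 5786 higher and 5541 lower became 2484 and 9245 with epithelial scaling, and the median of the 41 was -2.48 there and -1.69 with log2(RPKM + 1). For the difference of sort effects, 24 lower genes became 14 with epithelial scaling. Over all genes 1269 higher became 2333 with epithelial scaling, 2059 with the Wald test and 2440 and 1967 with log2(RPKM + 1) and log2(RPKM + 0.1), and 2483 lower became 747 with epithelial scaling and 1542 with no filter. The median of the 41 was -0.54 with log2(RPKM + 1). A pseudocount of 1 understates changes of low genes by construction, and the cause of the other shifts was not tested.

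With epithelial scaling, which lowered the median of all genes for the sort in AKVPL to -0.18, beside 0.14 with TMM, 12 of the 41 genes changed sign in that contrast, 1 (Parp14) for the sort in AKVPSL and 4 for the difference, and none for the genotype. Of values that passed the threshold with TMM or with this scaling, those that changed sign were Parp12 (-0.0324) and Irf3 (-0.0269) for the sort in AKVPL, and Lgr5 (-0.44), Ifnlr1 (-0.0833), Sting1 (-0.0112) and Ifitm2 (-0.19) for the genotype in GFP- cells.

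With 1 library left out, the sort in AKVPL gave 11 to 18 higher and 0 to 2 lower genes of the 41 (all genes 2560 to 4431 and 2693 to 3466, median 0.26 to 0.44). The sort in AKVPSL gave 1 to 4 and 17 to 27 (2952 to 4125 and 3820 to 5340, median -0.81 to -0.49). The genotype gave 0 and 41 in GFP+ cells (4111 to 4844 and 4362 to 5288, median -3.40 to -3.05) and 0 and 39 to 41 in GFP- cells (5502 to 5973 and 5017 to 5624, median -2.17 to -1.83). The difference gave 0 and 18 to 26 (932 to 1723 and 1884 to 2923, median -1.25 to -0.83).

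With the replicate block the counts of higher and lower genes of the 41 were 25 and 3 for the sort in AKVPL, 4 and 25 for the sort in AKVPSL, and 0 and 31 for the difference. No call was lost, and the calls gained by the 41 genes in these contrasts stand in the report. Across genotypes the labels give no pairing by number, and there the block gave 0 and 41 in each fraction, with Ifitm3 gained in GFP- cells (-0.33, edgeR adjusted p = 0.0439).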
